A study of Mus musculus with 6 samples.

Results

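Resident perivascular macrophages and the scavenger receptors they carry were examined in stria vascularis through 10 genes, Mrc1, Cd163, Lyve1, F13a1, Folr2, Cbr2, Pf4, Stab1, Msr1 and Cd36. All probe sets whose platform gene symbol was one of these names were taken, which gave 16 of the 45037 probe sets tested and 10 of 18193 genes. Msr1 had 4 probe sets, Cd36 had 3, Lyve1 had 2 and the other 7 genes had 1 each. The members were picked by gene name.

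Stria vascularis lines the lateral wall of the cochlear duct, where it supplies endolymph with K+ and sets up the endocochlear potential. It was microdissected from adult 129S6 mice with Slc26a4 intact (Slc26a4+/+, P148 ± 3) and from Slc26a4-/- mice, which lack a functional gene for the anion exchanger pendrin (P153 ± 1). Affymetrix mouse 430 2.0 arrays were run on 3 samples per genotype. A sample was a pool of RNA from 2 animals that went through 2 rounds of amplification. The mice were not perfused, so that blood remained in the capillaries. The values are signals, the brightness of a probe set on a linear scale as deposited, and the error of a mean is the SD over the 3 arrays of a genotype.

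Perivascular macrophages sit along capillaries, take up material that leaves the blood and help to maintain the vessel wall. In the stria they lie against the dense capillary bed and are counted among the cells of the blood-labyrinth barrier. Scavenger receptors are cell surface proteins of unrelated structure that bind modified lipoproteins, glycoproteins, haemoglobin complexes and debris and carry them into the cell. Several genes of the set are not limited to macrophages, since Lyve1 and Stab1 are also used by lymphatic and sinusoidal endothelium, Cd36 by capillaries, platelets and fat, and Pf4 and F13a1 by megakaryocytes.

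The arrays differed in ways that bear on genes as dim as these. Olfactory receptor genes, 44 probe sets in all, served as the background, their 95th percentile on each array, which ranged from 199.7 to 319 on the Slc26a4+/+ arrays and from 187 to 214 on the Slc26a4-/- arrays. Slc26a4+/+ array 3 stood apart, with the highest background, the highest median signal (188.5 against 140.2 to 154.6 on the other arrays) and a Gapdh 3' to 5' signal ratio of 10.5, a measure of shortened RNA. This ratio was 7.19 on Slc26a4+/+ array 2 and 2.25 to 3.80 on the remaining arrays. Xist, which female cells express, ranged from 771 to 3358 in Slc26a4+/+ and from 5530 to 5863 in Slc26a4-/-. The Y-linked Eif2s3y ranged from 640 to 1541 and from 3.1 to 3.6, so that sex and genotype cannot be told apart. The probe set of Slc26a4 itself read 793 to 1354 in Slc26a4+/+ and 520 to 717 in Slc26a4-/-. All 13 measured genes of a stria vascularis list were above background, and 1 of them, the K+ channel subunit Kcne1, was lower in Slc26a4-/- (8866 ± 1034 against 3668 ± 349 (SD, n = 3), adjusted p = 0.00237 by limma).

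Among the 10 genes, Mrc1, Cbr2 and Stab1 were the ones whose Slc26a4-/- arrays all lay above all Slc26a4+/+ arrays. Their upstream sequences are printed to show what lies before the start of these genes. RefSeq promoter windows of GRCm38.p6, restricted to the 250 bases before the start, were matched for 8 of the 10 genes (not Lyve1 and Msr1), with 10 windows in all. Capitals mark matches on either strand to the core of PU.1, a factor of the myeloid lineage (GAGGAA, on the other strand TTCCTC), and to the MAF half-site (TGCTGA, on the other strand TCAGCA), 2 motifs whose matches did not overlap. The windows are Mrc1 at chr2:14229164-14229413 on the plus strand, Cbr2 at chr11:120732022-120732271 on the minus strand and Stab1 at chr14:31168642-31168891 on the minus strand, each read 5' to 3' toward the gene.
Mrc1: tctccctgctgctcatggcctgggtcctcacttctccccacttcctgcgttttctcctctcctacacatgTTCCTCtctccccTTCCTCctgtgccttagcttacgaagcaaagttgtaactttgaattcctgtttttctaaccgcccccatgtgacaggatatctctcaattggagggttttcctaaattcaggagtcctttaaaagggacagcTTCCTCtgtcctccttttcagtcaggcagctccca
Cbr2: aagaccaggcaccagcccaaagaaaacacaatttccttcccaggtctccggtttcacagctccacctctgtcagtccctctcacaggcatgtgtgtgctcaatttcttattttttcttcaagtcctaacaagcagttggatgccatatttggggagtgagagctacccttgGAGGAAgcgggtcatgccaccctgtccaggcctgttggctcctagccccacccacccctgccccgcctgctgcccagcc
Stab1: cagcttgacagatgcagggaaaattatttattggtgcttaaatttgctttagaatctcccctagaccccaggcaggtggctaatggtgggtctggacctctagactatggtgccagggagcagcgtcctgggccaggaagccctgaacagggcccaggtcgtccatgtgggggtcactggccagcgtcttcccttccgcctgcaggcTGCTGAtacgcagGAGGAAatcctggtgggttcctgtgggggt
Mrc1 held 3 PU.1 cores, beginning at positions -180, -167 and -35 counted from the start. Cbr2 held 1 at -79, and Stab1 held 1 at -30 together with a MAF half-site at -43. Of the 10 windows, 5 held a PU.1 core and 4 a MAF half-site, in 5 and 3 genes. Of 32851 promoter windows of the same length, 23.3% held the PU.1 core and 16.1% the MAF half-site. These are matches of letters and not sites of binding, which these data do not measure.

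The main comparison asked whether RNA of resident perivascular macrophages differed between the genotypes. 5 genes, Mrc1, Cbr2, Pf4, Stab1 and Msr1, exceeded background on 2 or more arrays of either genotype, and all 5 did so on the 3 Slc26a4-/- arrays. By the same rule, 10622 of all 18193 genes (58.4%) were above background. Of all probe sets, 35.7% to 42.0% exceeded background on the Slc26a4+/+ arrays and 42.0% to 43.3% on the Slc26a4-/- arrays. Only Cbr2 was above background on every Slc26a4+/+ array. Cd163, Lyve1, F13a1 and Cd36 lay below it on all 6 arrays, and Folr2 rose over it on 1 Slc26a4-/- array alone. The defining receptors Cd163 and Lyve1 were thus not above background in either genotype.

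No gene of the set passed an adjusted p of 0.05 in limma's fit over all probe sets, upward or downward, where 1.19% of all probe sets were called higher and 0.540% lower in Slc26a4-/- (535 and 243 probe sets, or 359 and 89 with arrays centred on the median). At an unadjusted p under 0.05, 3 of the 10 genes, Mrc1, Cbr2 and Stab1, were higher, against 6.15% of all probe sets. The same 3 genes had non-overlapping arrays in the direction of Slc26a4-/-, as did 8.46% of all probe sets. By the brightest probe set, none of the 10 had Slc26a4-/- arrays that all lay below the Slc26a4+/+ arrays, against 9.40% of all probe sets. A dimmer probe set of Cd36, below background on every array, did. The median log2 fold change, as Slc26a4-/- minus Slc26a4+/+, was 0.39 for the 10 genes, -0.06 over all probe sets and -0.03 over all genes by their brightest probe set. Without Slc26a4+/+ array 3, the array with the highest median signal, the median of the 10 genes was 0.82. The median over all probe sets is not given for that fit, so a shift shared by other genes cannot be told apart. With 1 array left out, the probe sets called numbered 165 (without Slc26a4-/- array 3) to 1048 (without Slc26a4+/+ array 1) upward and 54 to 666 downward. A change in the number of cells of a type and a change in RNA per cell cannot be told apart in such tissue RNA.

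**Figure D1:**
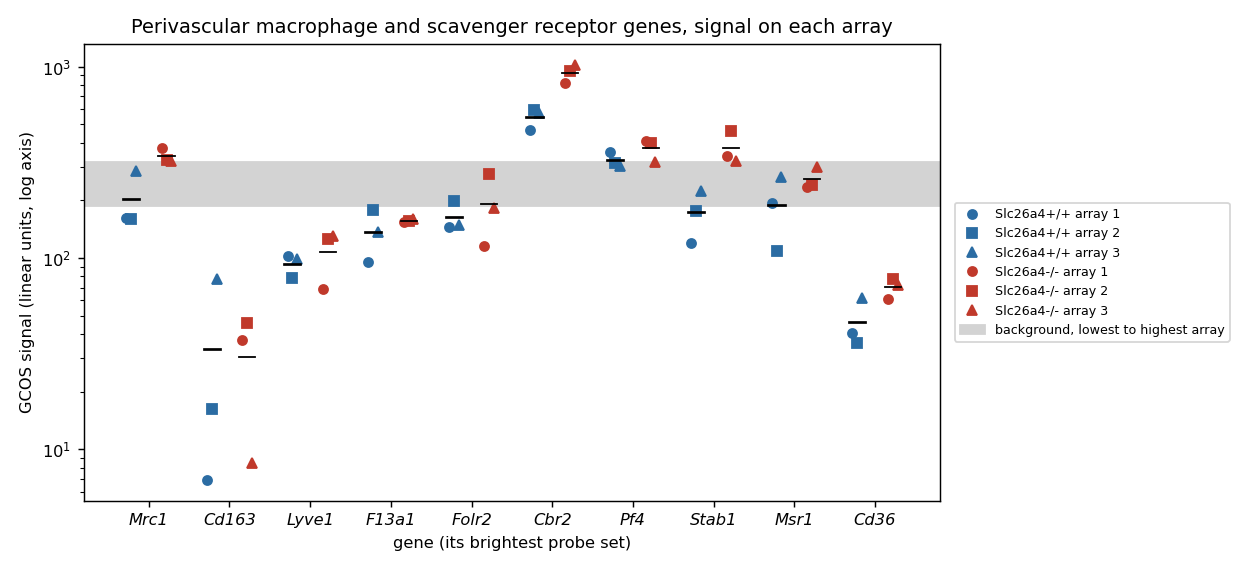
Signal of each of the 10 genes on each array, by its brightest probe set, on a log axis in linear signal units. Blue marks Slc26a4+/+ and red Slc26a4-/- (circle, square and triangle for arrays 1, 2 and 3), black lines are means over 3 arrays and the grey band spans the background from 187 to 319. Cbr2 lies above the band on all 6 arrays, while Cd163, Lyve1, F13a1 and Cd36 lie below it.

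Among the endocytic receptors, Mrc1, the mannose receptor that takes up glycoproteins, read 162.3, 160.4 and 284.2 in Slc26a4+/+ and 376.1, 323.5 and 322.9 in Slc26a4-/-. No array of one genotype overlapped the other, but Slc26a4+/+ array 3, the array with the highest background, lay much nearer to the Slc26a4-/- arrays than the other 2. None of the Slc26a4+/+ arrays put Mrc1 above background, and its mean Slc26a4-/- level was 1.32-fold above the Slc26a4+/+ background. This ratio carries no sampling error. The fitted log2 fold change was 0.80 (SE 0.28, 95% interval 0.18 to 1.43), and it did not pass the test (adjusted p = 0.266, limma). Without Slc26a4+/+ array 3 it was 1.08 with an adjusted p of 0.0482, where 1.46% of all probe sets were called higher.

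Stab1, stabilin-1, a receptor that clears acetylated lipoproteins and matrix fragments, had signals of 120.3, 175.8 and 223.6 in Slc26a4+/+ and of 341, 461.9 and 320.4 in Slc26a4-/-. Every Slc26a4+/+ array was below background and every Slc26a4-/- array above it. The mean Slc26a4-/- level of Stab1 was 1.43-fold above the Slc26a4+/+ background, a ratio without sampling error. Its fitted log2 fold change of 1.14 (SE 0.29, 95% interval 0.48 to 1.79) had an adjusted p of 0.107 by limma.

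Cd163, the receptor for haptoglobin-haemoglobin complexes, had signals of 6.9, 16.2 and 77.3 in Slc26a4+/+ and of 37.1, 45.9 and 8.5 in Slc26a4-/-. Both genotypes lay far below background with arrays that overlapped, and no fold can be given. The direction was unsettled as well, since the mean signal was 33.5 in Slc26a4+/+ and 30.5 in Slc26a4-/- while the log2 fold change was 0.25 (SE 0.99). The log2 interval from -1.96 to 2.46 leaves a change of several fold either way possible.

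Lyve1, a hyaluronan receptor of tissue macrophages and lymphatic vessels, had signals of 102.2, 78.1 and 99.2 in Slc26a4+/+ and of 68.9, 125.5 and 129.7 in Slc26a4-/- by its brighter probe set. The Slc26a4-/- arrays held both the lowest and the highest of the 6 values, and the log2 fold change was 0.17 (SE 0.41, adjusted p = 0.916, limma). The dimmer probe set ranged from 4.4 to 43.5 in Slc26a4+/+ and from 28.6 to 73.3 in Slc26a4-/-, also with overlap.

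Folr2, folate receptor beta, had signals of 145.3, 198.6 and 148.9 in Slc26a4+/+ and of 116, 273.9 and 182 in Slc26a4-/-. The lowest and the highest value both came from Slc26a4-/- arrays, and array 2 was the only one above its background. The log2 fold change was 0.14 (SE 0.36, adjusted p = 0.920, limma).

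Msr1, the class A macrophage scavenger receptor for modified lipoproteins, had signals of 194.8, 108.9 and 264.2 in Slc26a4+/+ and of 235.8, 240.2 and 299.9 in Slc26a4-/- by the only one of its probe sets above background. Slc26a4+/+ array 3 lay above 2 of the Slc26a4-/- arrays, so the groups overlapped. It was below background on all Slc26a4+/+ arrays and above it on all Slc26a4-/- arrays, but the level gave no fold over the background. The log2 fold change was 0.53 (SE 0.34, adjusted p = 0.608, limma). Of its other 3 probe sets, all below background on every array, 1 had a log2 fold change of 0.52 and the others -0.29 and -0.11.

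Cd36, the class B scavenger receptor that also takes up fatty acids, was below background on every array by all 3 probe sets. Its brightest had signals of 40.7, 35.8 and 62.1 in Slc26a4+/+ and of 60.7, 77.8 and 71.9 in Slc26a4-/-, and its fitted difference was 0.64 on the log2 scale (SE 0.48, adjusted p = 0.674, limma). The probe sets disagreed, since a second one had 56.3, 72 and 41.8 in Slc26a4+/+ against 23.9, 35.3 and 35 in Slc26a4-/-, with all Slc26a4-/- arrays lower and a log2 fold change of -0.84 (SE 0.53). The third had overlapping arrays and a log2 fold change of 0.53. At these signals neither direction was measured.

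Among the enzymes and secreted products, Cbr2, a carbonyl reductase found in resident macrophages, was the only gene of the set measured above background on all 6 arrays. Its signals were 467, 594.5 and 569.3 in Slc26a4+/+ and 817.5, 946.6 and 1023.2 in Slc26a4-/-. All Slc26a4-/- arrays were higher, by 1.71-fold on the log2 mean, with means of 544 ± 67.5 and 929 ± 104.0 (SD, n = 3). The log2 fold change of 0.77 (SE 0.17, 95% interval 0.39 to 1.16) missed the threshold with an adjusted p of 0.0611 by limma. When only probe sets with a mean signal of at least 300 were tested, the same difference had an adjusted p of 0.0342, where 3.60% of the probe sets were called higher.

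Pf4, the chemokine platelet factor 4, had signals of 359.8, 312.5 and 301.5 in Slc26a4+/+ and of 407.2, 400.7 and 317.6 in Slc26a4-/-. Slc26a4-/- array 3 fell among the Slc26a4+/+ arrays, and the log2 fold change was 0.20 (SE 0.21, 95% interval -0.26 to 0.67, adjusted p = 0.770, limma). F13a1, the A chain of clotting factor XIII, had signals of 94.8, 177.3 and 136.8 in Slc26a4+/+ and of 154, 155.8 and 159.9 in Slc26a4-/-. The Slc26a4-/- arrays lay inside the range of the Slc26a4+/+ arrays, all 6 under background, with a log2 fold change of 0.25 (SE 0.34).

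**Figure D2:**
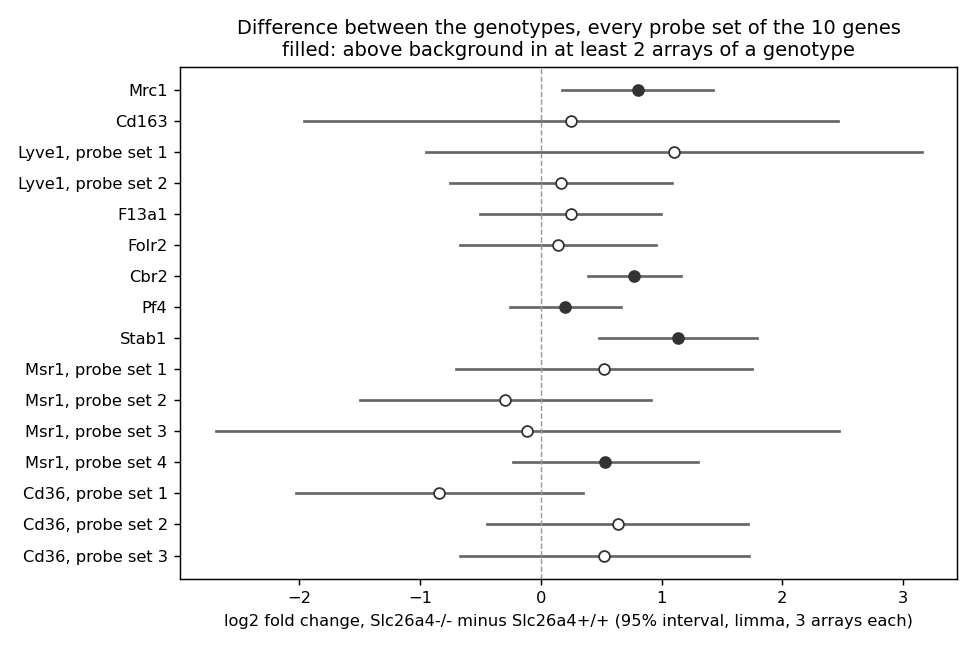
Log2 fold change (Slc26a4-/- minus Slc26a4+/+) with its 95% interval by limma for all 16 probe sets of the 10 genes, 3 arrays per genotype. Filled points exceeded background on 2 or more arrays of either genotype. The intervals of Mrc1, Cbr2 and Stab1 lie above 0, from 0.18, 0.39 and 0.48 upward, and those of the other probe sets include 0.

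How far these differences stood out depended on the weight given to single arrays. With array weights, which count noisy arrays less, Mrc1 (adjusted p = 0.0137), Cbr2 (0.0099), Stab1 (0.0139) and Msr1 (0.0359) passed in limma, but 5.27% of all probe sets were then called higher as well. With the log2 Xist signal as a covariate, none of the 10 passed and the median log2 fold change was 0.53. The study's ratio rule, run here without Present calls, called Mrc1, Lyve1, Cbr2 and Stab1 higher, beside 2912 of all 18193 genes (16.01%), and Lyve1 was called at signals below background. The sign of the log2 fold change was kept in every setting that gave one for Mrc1, Lyve1, Cbr2, Pf4, Stab1, Msr1 and Cd36. It turned in some settings for Cd163, F13a1 and Folr2. Single dimmer probe sets of Msr1 and Cd36 had negative values, as given above.

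**Figure D3:**
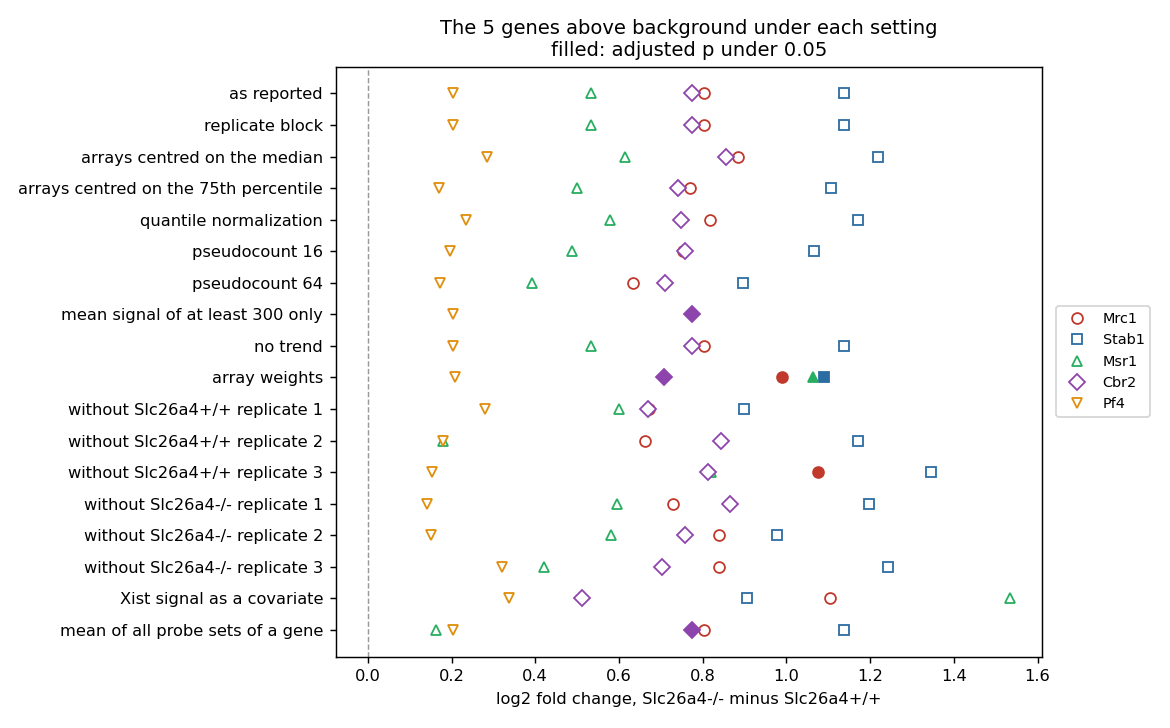
Log2 fold change (Slc26a4-/- minus Slc26a4+/+) of the 5 genes above background under each setting run, one row per setting, with filled symbols for an adjusted p under 0.05. Mrc1, Stab1 and Msr1 are missing where only mean signals of at least 300 were tested. Mrc1, Stab1 and Msr1 exceeded the background of their own array in Slc26a4-/- alone. That background was at most 214 on the Slc26a4-/- arrays and up to 319 on the Slc26a4+/+ arrays. On Slc26a4+/+ array 3 these genes read 284.2, 223.6 and 264.2. Of the filled symbols, 4 are in the row with array weights.

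Other genes of perivascular macrophages were taken from a list of 24, of which 23 were measured and 11 were above background. 3 were higher and 0 lower in Slc26a4-/- (limma, all probe sets), with a median log2 fold change of 0.34. Ms4a7, a membrane protein of tissue macrophages, rose by 2.46 on the log2 scale (SE 0.18), from 427 ± 89.3 to 2305 ± 71.6 (SD, n = 3, adjusted p = 0.000171). Apoe, the lipid carrier apolipoprotein E, rose by 0.91 on the log2 scale (SE 0.18), from 8355 ± 1857 to 15449.5 ± 1210 (adjusted p = 0.0355). Dab2, an endocytic adaptor, rose by 0.90 (SE 0.18), from 709 ± 138 to 1306 ± 105 (adjusted p = 0.0390). The other probe sets of Dab2 did not pass, with log2 fold changes of 0.50 (adjusted p = 0.495, limma), -0.45 and -0.23, the negative ones near or below background. Ms4a7 passed with any 1 array left out, whereas Apoe and Dab2 passed in 2 of 6 such fits, failing without Slc26a4+/+ array 2 or any of the Slc26a4-/- arrays, with an adjusted p of up to 0.185 for Apoe and 0.205 for Dab2. Neither passed with arrays centred on the median (0.184 for Apoe and 0.179 for Dab2), with arrays centred on the 75th percentile (0.0550 and 0.0579) or without a trend (0.281 and 0.276).

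Clec4n, the lectin receptor dectin-2, had an adjusted p of 0.0628 and passed with the replicate number as a block (0.0367). It was below background in Slc26a4+/+ and at least 1.56-fold higher in Slc26a4-/-. The 3 brightest genes of the list that did not pass were Igf1, the growth factor (log2 fold change -0.43, adjusted p = 0.223), Ednrb, an endothelin receptor (0.58, adjusted p = 0.0864), and Maf, a transcription factor of resident macrophages (-0.32, adjusted p = 0.479). All 3 had non-overlapping arrays, with Slc26a4-/- lower for Igf1 and Maf (as for 9.40% of all probe sets) and higher for Ednrb (8.46%). These genes are also used by other cells of the lateral wall, and which cells held the RNA of Apoe and Dab2 was not tested.

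Other scavenger receptors were counted over 20 genes, 11 of them above background. 4 were higher and 0 lower in Slc26a4-/-, with a median log2 fold change of 0.47. Cd68, a lysosomal glycoprotein of phagocytes, was below background on all Slc26a4+/+ arrays (170.2 ± 43.3) and read 1344 ± 85.7 in Slc26a4-/-, at least 5.20-fold higher (log2 fold change 3.01, adjusted p = 0.000171). Fcrls, an Fc receptor-like scavenger receptor, was likewise below background in Slc26a4+/+ and at least 4.38-fold higher (168.9 ± 45.3 against 1140 ± 190.2, log2 fold change 2.78, adjusted p = 0.000483). The study listed Cd68 and Fcrls (there named Msr2) as raised from these same arrays, so their rise is not a separate finding. Clec7a, the beta-glucan receptor dectin-1, rose by 1.22 on the log2 scale (SE 0.19), from 279.9 ± 32.1 to 653 ± 86.4 (adjusted p = 0.0134). Lrp1, a large endocytic receptor of many cell types, rose by 0.65 (SE 0.13), from 1162.5 ± 78.2 to 1823 ± 70.1 (adjusted p = 0.0434).

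Cd68 and Fcrls passed with any 1 array left out. Clec7a did not pass without any one of the Slc26a4-/- arrays, with an adjusted p of up to 0.126. Lrp1 did not pass without Slc26a4+/+ array 2 or any one of the Slc26a4-/- arrays, with an adjusted p of up to 0.279, and it did not pass with the replicate block (0.0615), centring (0.105 on the median), quantile normalization (0.0542) or without a trend (0.306). Without a trend Clec7a had an adjusted p of 0.127. The 3 brightest receptors that did not pass were Scarb2, a lysosomal membrane protein (-0.10, adjusted p = 0.850), Scara3 (0.14, adjusted p = 0.770) and the engulfment receptor Megf10 (0.61, adjusted p = 0.0766), each as a log2 fold change. A dimmer probe set of Scarb2 had 0.69 with all Slc26a4-/- arrays higher, and it did not pass either (adjusted p = 0.127, limma). With the log2 Xist signal as a covariate, 27 probe sets in all passed upward, and none of the other perivascular genes or scavenger receptors was among them.

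Markers shared by macrophages in general gave the widest difference. Several of them, including Ptprc, Cd68, Lgals3, Lyz2, Mpeg1 and Ctss, were listed as raised by the study from these same arrays. Their rise here is therefore not a separate finding. Of 18 such genes, 17 were above background, 13 were higher and 0 lower in Slc26a4-/-, with a median log2 fold change of 1.95 beside 0.39 for the 10 genes of the set. Their summed signal was 9421 to 12084 on the Slc26a4+/+ arrays and 50245 to 51785 on the Slc26a4-/- arrays, whereas the 10 genes summed to 1694 to 2167 and 2614 to 3052. The difference between the lists was not tested. Lyz2, lysozyme, rose by 4.30 on the log2 scale (SE 0.13), from 516 ± 48.9 to 10124 ± 381 (adjusted p = 1.22e-06). Lgals3, galectin-3, was below background in Slc26a4+/+ and at least 14.1-fold higher in Slc26a4-/-. Mpeg1, perforin-2 (log2 fold change 3.27), and the complement gene C1qc (3.19) also rose, and these 4 genes passed in each of the 16 other limma fits that were run for single genes of the lists.

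The brightest of 3 probe sets of the macrophage lineage receptor Csf1r had a log2 fold change of 0.91 with an adjusted p of 0.0501, which became 0.0268 with the replicate block. Its other probe sets differed, with 1.16 (adjusted p = 0.0116) and 0.30 (0.722). Adgre1, the F4/80 antigen, had one of 1.10 with an adjusted p of 0.0513. Both were above background on all 6 arrays, and by the brightest probe set all Slc26a4-/- arrays were higher. Cd68 stands in this list and in that of the scavenger receptors.

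**Figure D4:**
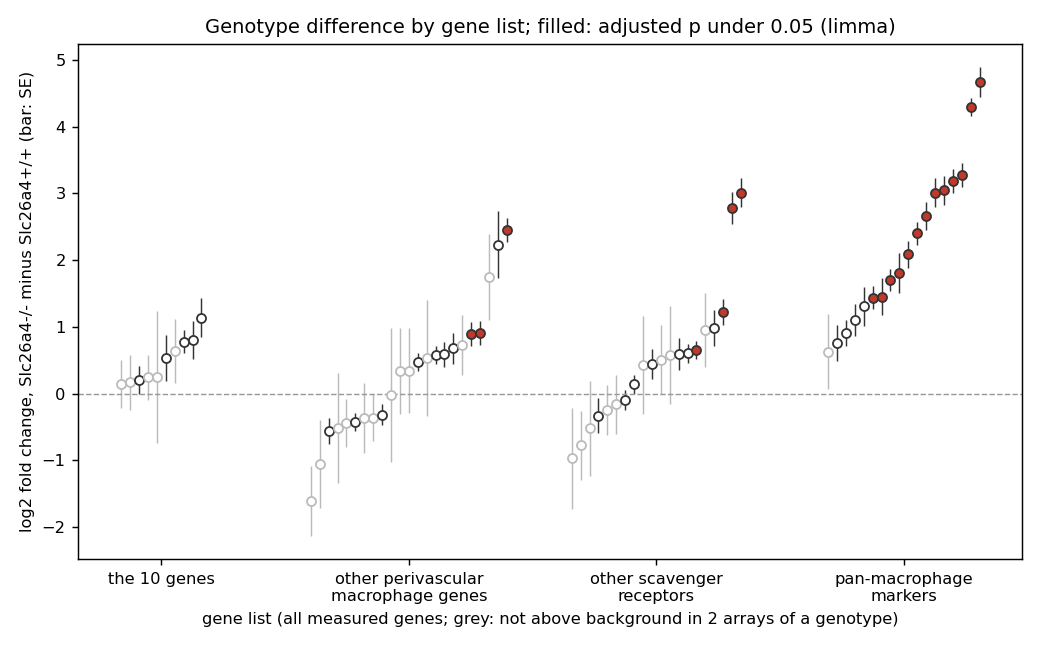
Log2 fold change (Slc26a4-/- minus Slc26a4+/+, bars are SE by limma) of all measured genes, by list. Red points passed an adjusted p of 0.05, and grey ones did not exceed background on 2 arrays of either genotype. Red are 0 of the 10 genes, 3 of 23 other perivascular genes, 4 of 20 other scavenger receptors and 13 of 18 pan-macrophage markers.

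Partners of these receptors were read beside them. Of 12 measured genes of haemoglobin, haem and iron handling, not all of them downstream of Cd163, 0 were higher and 0 lower. These counts are by the probe set that stands for the gene, with a median log2 fold change of -0.05. Arrays did not overlap for 4 of the 12 upward and for 2 downward, against 8.46% and 9.40% of all probe sets. Of the 3 probe sets of Tfrc, the transferrin receptor, all were lower on every Slc26a4-/- array, and 1, below background in Slc26a4-/-, passed (log2 fold change -1.31, adjusted p = 0.0477). Of 13 genes of fatty acid uptake and lipid storage, which work with Cd36, 2 were higher. Cav1, the caveolar protein caveolin-1, rose by 1.69 on the log2 scale, from 2057.5 ± 42.9 to 6622 ± 309.6, and Fabp5, a fatty acid binding protein, rose by 1.54, from 1903.5 ± 898 to 5170 ± 287. Fabp5 passed in 2 of 6 fits with 1 array left out, failing without Slc26a4+/+ array 3 or any of the Slc26a4-/- arrays (adjusted p up to 0.0952), and it also failed with arrays centred on the median (0.0626) and without a trend (0.219).

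Markers of other cells that can hold these RNAs were measured as well, and their part in the differences was not tested. Of 10 platelet genes, a source of Pf4 and F13a1, 4 were above background and 0 passed, with a summed signal of 823 to 1461 in Slc26a4+/+ and 976 to 1499.5 in Slc26a4-/-. Of 13 genes of blood monocytes and neutrophils, 2 were above background and 0 passed. Of 7 red cell genes, 0 passed, with sums of 731 to 1550 and 548 to 781.

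Of 14 capillary endothelial genes, 12 were above background and 0 passed, with sums of 11720 to 20459 in Slc26a4+/+ and 14747 to 17205 in Slc26a4-/-. Their median log2 fold change was 0.35. Arrays did not overlap for 5 of the 14 upward and 0 downward, against 8.46% and 9.40% of all probe sets. Of 6 lymphatic endothelial genes, 1, the semaphorin receptor Nrp2, was higher (log2 fold change 0.64, adjusted p = 0.0422, and 0.0584 with the replicate block). Nrp2 passed in 2 of 6 fits with 1 array left out, failing without Slc26a4+/+ array 2 or any of the Slc26a4-/- arrays (up to 0.283), with centring (0.153 on the median) and without a trend (0.326). Of the 6 genes 4 were above background, and lymphatic sums were 5568 to 6127 and 7464 to 8487. None of 8 pericyte genes passed, with sums of 4448 to 7927 and 7453 to 9427. Their median log2 fold change was 0.77, beside 0.39 for the 10 genes of the set. Pericyte arrays did not overlap for 4 of the 8 genes upward and 0 downward. None of 4 adipocyte genes passed, and 1 of them was above background.

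Genes of the neighbouring spiral ligament moved with the genotype too. Of 12 fibrocyte genes 4 were higher and 0 lower in Slc26a4-/-, with sums of 22386 to 25522 and 31084 to 33111. Chad, a matrix protein of cartilage, was below background in Slc26a4+/+ and at least 3.33-fold higher, Otos, otospiralin, rose by 1.89, Dcn, decorin, by 1.57 and Ucma by 1.17 on the log2 scale. Their part in the values of the 10 genes was not tested.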

How the data were processed

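RNA of stria vascularis was measured on 6 Affymetrix arrays. The deposited values are intensities, 1 linear signal for a probe set on an array, which the authors made with GCOS (named in their processing notes), including background correction and a scaling of each array. Its version and scaling target: not given in the sources used here. Arrays were grouped by their labels. Control probe sets (64) were left out, which left 45037. A floor of 1 replaced 172 lower signals, and the log2 values were fitted by limma 3.58.1 in R 4.3.3 (lmFit, eBayes with trend), two-sided, with Benjamini-Hochberg adjustment over all probe sets and a threshold of 0.05. Genes were named from the platform annotation (34945 probe sets with 1 symbol, 932 with several, 9160 with none) and matched to GRCm38.p6, and each is represented by the probe set that was brightest on average (log2 scale). Genotypes were compared within a probe set, and summed signals and brightness serve as descriptions. Where all arrays of 1 genotype were below background, the bound sets the higher mean against the background and carries no sampling error. The members and lists were chosen with earlier results of these data known.

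All members are named. From the other lists the genes past the threshold, at most 4 by p, are named, and for the 2 related lists also the 3 brightest that did not pass. Kcne1 and Nrp2 fall under this rule. Clec4n, Csf1r, Adgre1, Tfrc, Vwf and Bsnd are not covered by it and were added once their values had been seen.

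The deviations of equally numbered arrays from their genotype means correlated at 0.283, 0.213 and 0.140, so a fit with the replicate number as a block was run too. The labels do not say what a number stands for, and p-values measure the spread between pools. The alternatives were array weights, centring, quantile normalization, other pseudocounts, a filter on dim probe sets, no trend and Xist as a covariate. Further ones were averaging over the probe sets of a gene, each array left out, a paired t-test and the study's ratio rule. The study names paired t-tests for differences and describes them for RT-PCR of matched mice. For the arrays it describes ratios and Present calls. Here equally numbered arrays were paired, a pairing that the labels do not give. The number of arrays limits the precision. The quantitative RT-PCR, microscopy and blots were not analysed here.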

Additional observations from a re-analysis of the deposited data

How the results depend on the processing

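None of the 10 genes passed downward in any setting. Upward the count was 0 except for 4 with array weights (Mrc1, Cbr2, Stab1, Msr1), 1 with a mean signal of at least 300 and 1 with the mean of all probe sets (both Cbr2), 1 by the paired t-test at an unadjusted 0.05 (Cbr2) and 4 by the study's ratio rule without Present calls (Mrc1, Lyve1, Cbr2, Stab1). The ratio rule called 16.01% of all genes higher, and array weights 5.27% of all probe sets. With each array left out the count among the 10 genes was 0 to 1 (Mrc1, without Slc26a4+/+ array 3). Their median log2 fold change was then 0.37 to 0.82, the highest without that array, and the median over all probe sets is not given for these fits. The log2 fold change turned for F13a1 with array weights (-0.046) and with Xist as a covariate (-0.50), for Folr2 under the same 2 settings (-0.011 and -0.29) and without Slc26a4-/- array 2 (-0.16, with 0.46 as the highest with an array left out), and for Cd163 without Slc26a4+/+ array 1 (-0.54) or Slc26a4-/- array 1 (-0.055) or 2 (-0.21), with 1.20 as the highest with an array left out. These 3 genes were below background on every array, apart from 1 array for Folr2, and the cause was not tested. With the replicate block 588 probe sets were higher and 244 lower, against 535 and 243 without it, and the calls of Clec4n, Csf1r, Lrp1 and Nrp2 changed as given above, as did those of Vwf and Bsnd, which passed with it.

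For all probe sets the higher and lower counts were 165 to 1048 and 54 to 666 with each array left out, 2372 and 1712 with array weights, 93 and 21 without a trend, 27 and 0 with Xist as a covariate, and 359 and 89 with arrays centred on the median. The t-test with arrays paired by replicate number gave 1782 and 2198 at an unadjusted 0.05 and 0 and 0 after Benjamini-Hochberg. Other perivascular genes passed upward in 1 (either centring, no trend, the mean of probe sets), 5 (quantile), 8 (array weights), 8 (the paired t-test, unadjusted), 0 (that test adjusted, or Xist) and 1 to 5 (each array left out). Other scavenger receptors passed in 2 (no trend), 7 (array weights), 0 (the adjusted t-test, or Xist) and 2 to 5 (each array left out). Of the genes named here that had passed, Lyz2, Lgals3, Mpeg1, C1qc and Chad still did with Xist as a covariate. Background limits 9 of the 10 genes on at least 1 Slc26a4+/+ array, and 3 arrays per genotype cannot give an exact permutation p below 0.1.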
